A study of Mus musculus with 8 samples.

Results

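The genes described here are 46 very long autosomal mouse genes for neuronal adhesion and synapse proteins, taken by symbol from a given list whose rule uses no measured value, though it was made with earlier results in view, out of 12984 protein-coding genes that hold at least 3 windows with a timing score. They fall into 13 groups by family or role, lie on 16 chromosomes and span 371 kb (Cntn6) to 2271 kb (Ptprd), with a median of 1091 kb. The median of all 12984 genes is 35.4 kb. Replication timing was measured by Repli-seq in E14Tg2a mouse embryonic stem cells whose CTCF, a chromatin loop anchor, carries an auxin-inducible degron. One group was given 500 µM indole-3-acetic acid, an auxin, for 2 days, the control group had none, and each group has 2 timing profiles, each built from the early and the late S-phase fraction of cells pulsed with BrdU for 2 hours. Both groups carry the degron, and cells without it that were given auxin were not analysed here, so what auxin does and what CTCF loss does cannot be told apart. A higher score means earlier replication, and scores and their differences are given in score units, whose log base the sources used here do not give. The 4 profiles were forced to 1 distribution by quantile normalization, so a shift of the whole genome could not be seen, and the SD of the score over 316864 windows was 2.10. No read counts were used here and sequencing depth is unknown. Whether the replicates were grown as separate cultures is not stated in the labels, and p-values here reflect only the spread between these profiles, which may be technical. Timing scores carry no RNA levels, so neither the cell type nor the expression of these genes could be checked.

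Mammalian chromosomes replicate in large domains, each copied at a characteristic time in S phase, and early domains are typically rich in active genes while late domains are typically gene-poor and associated with the nuclear lamina. Many of the longest mammalian genes encode cell adhesion molecules, axon guidance receptors and synaptic proteins that are expressed mainly in neurons. In embryonic stem cells most of them are silent or weakly transcribed.

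Nearly all of the 46 genes replicated late in control cells. The mean score over the gene body was below -0.5, the threshold used for late, in 44 of them (95.7%), and above 0.5, the threshold for early, in Magi1 and Tenm4. Of all 12984 genes 19.2% were late and 70.4% early. The median control score was -2.57 over the 46 genes and 1.84 over all genes. Length goes with this level across the genome, with a Spearman correlation of -0.29 between length and control score over the 12984 genes, which share the same 4 profiles and whose neighbours share domains. Of 180 other genes of 500 kb or more, 82.8% were late, with a median of -2.18. With auxin the same number of the 46 genes, 44, lay below -0.5, and their median was again -2.57.

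**Figure D1:**
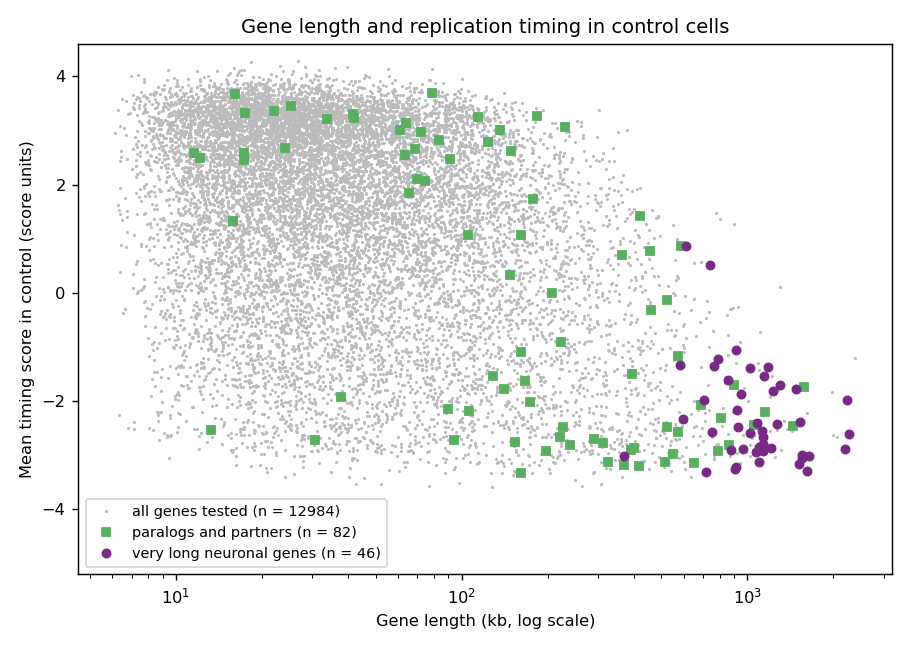
Gene length in kb on a log axis against the mean timing score of the gene body in the 2 control profiles, in score units. Grey points are the 12984 genes tested, green squares 82 paralogs and partners, and purple circles the 46 very long genes, of which 44 lie below -0.5.

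The latest of the 46 were a contactin-associated gene, a neurexin and another contactin-associated gene. Cntnap5b, a transmembrane relative of the neurexins, scored -3.50 and -3.13 in the control profiles and -3.16 and -2.76 with auxin. Nrxn3, a presynaptic adhesion receptor, scored -3.35 and -3.22 in control and -2.98 and -3.20 with auxin. Cntnap5a scored -3.22 and -3.31 in control and -3.16 and -2.79 with auxin. Auxin and control profiles overlapped in Cntnap5b, and both auxin profiles lay above both controls in Nrxn3 and Cntnap5a, by amounts that did not pass the test (limma, Benjamini-Hochberg adjusted p = 0.579 and 0.449).

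The earliest was Magi1, a scaffold of cell junctions, at 0.88 and 0.85 in control and 1.22 and 1.01 with auxin. Tenm4, a teneurin, which are adhesion proteins that bind latrophilins across the synapse, scored 0.43 and 0.60 in control and 0.53 and 0.65 with auxin. Dpp6, an auxiliary subunit of A-type potassium channels, came next at -0.99 and -1.12 in control and -0.99 and -1.15 with auxin. The auxin profiles lay above the controls in Magi1 and overlapped them in Tenm4 and Dpp6. No other gene of the 46 had a control mean between the 0.52 of Tenm4 and the -1.06 of Dpp6.

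**Figure D2:**
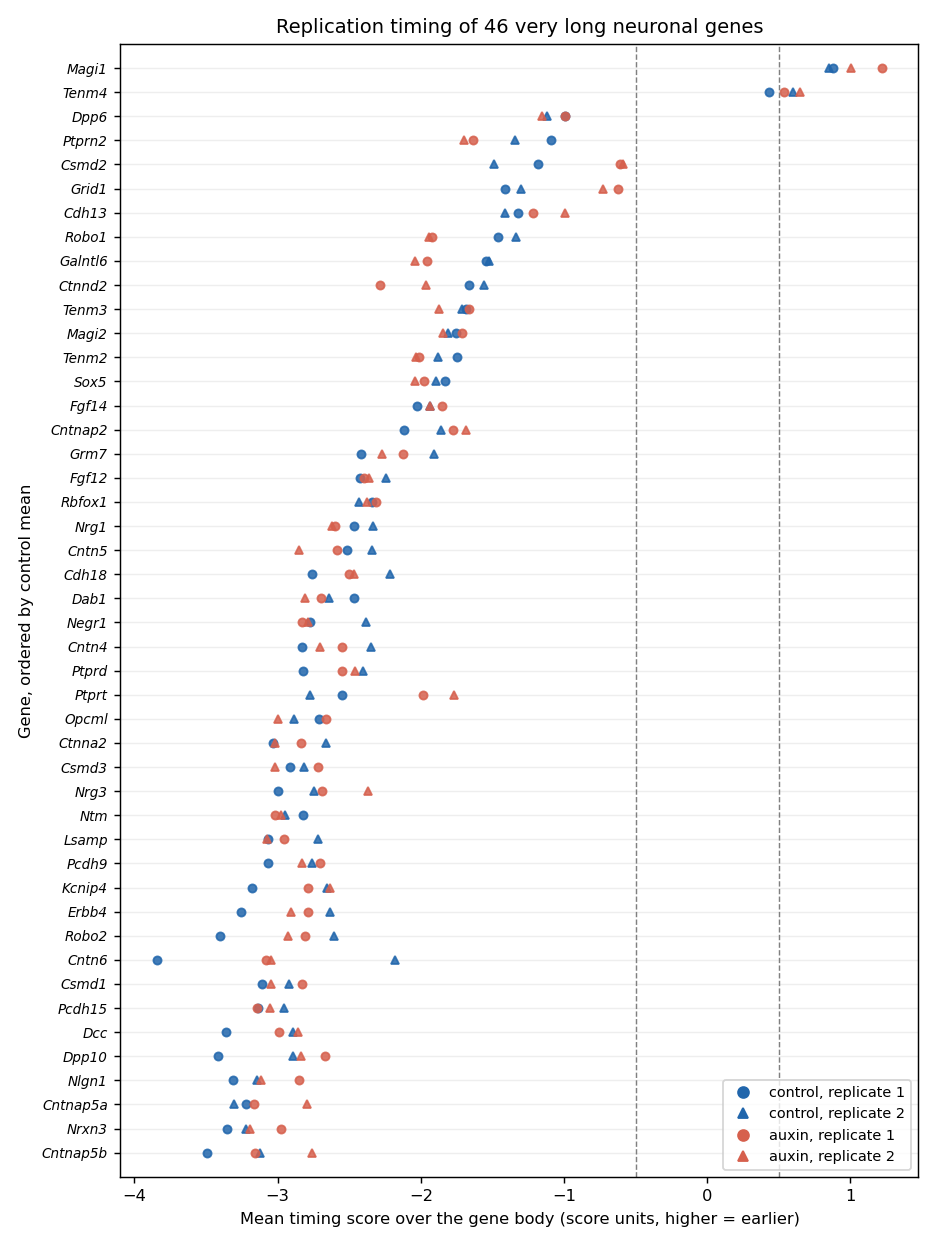
Mean timing score over the gene body (score units, higher is earlier) of the 46 genes in each of the 4 profiles, ordered by control mean, with blue for control, red for auxin, circles for replicate 1 and triangles for replicate 2. Dashed lines mark -0.5 and 0.5, and 44 genes have control means left of the first line.

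The families differed in how far their members spread. The contactins and contactin-associated genes, which organize axonal membrane domains and bind other cells, ran from -3.31 (Cntnap5b) to -1.99 (Cntnap2) over 6 members. Nlgn1, the postsynaptic partner of neurexins at excitatory synapses, had a control mean of -3.22 beside -3.29 for Nrxn3. The 4 IgLON genes Lsamp, Opcml, Ntm and Negr1, which encode membrane-anchored immunoglobulin proteins, lay close together, from -2.89 to -2.58. Opcml and Ntm are neighbours, 69.3 kb apart on chromosome 9, and are therefore not independent.

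Among guidance receptors, the netrin receptor Dcc and the Slit receptor Robo2 had control means of -3.13 and -3.00, while Robo1, another Slit receptor 844 kb away from Robo2, had -1.40. Among receptor tyrosine phosphatases, Ptprd, which induces synapse formation from the presynaptic side, had -2.61, Ptprt, a homophilic adhesion phosphatase, -2.66, and Ptprn2, a protein of secretory vesicles, -1.22. The large transmembrane CUB and sushi domain proteins Csmd1 and Csmd3 had -3.02 and -2.86, and Csmd2 had -1.34. The members of these 3 groups therefore did not share a level.

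The catenins and scaffolds ran from -2.85 for Ctnna2, which links cadherins to actin in neurons, through -1.78 for Magi2, a synaptic scaffold, and -1.61 for Ctnnd2, a neural catenin, to 0.86 for Magi1. Intracellular members comprised Dab1, the adaptor of reelin signalling, at -2.55, the splicing regulator Rbfox1 at -2.38, the transcription factor Sox5 at -1.87 and Galntl6, a member of a glycosyltransferase family, at -1.54. The receptor tyrosine kinase Erbb4 had -2.95, and its ligands Nrg3 and Nrg1 had -2.87 and -2.40. All of these except Magi1 were late.

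Of the glutamate receptors, the presynaptic metabotropic receptor Grm7 had -2.17 and the delta receptor Grid1, which binds cerebellins, -1.36. Channel-associated subunits ran from -3.16 for Dpp10 through -2.92 for Kcnip4 to -1.06 for Dpp6, with the sodium channel partners Fgf12 and Fgf14 at -2.33 and -1.98. The teneurins Tenm2 and Tenm3 had -1.81 and -1.70. The cadherins ran from -3.05 for Pcdh15, a component of hair cell tip links, through -2.91 for Pcdh9 and -2.49 for Cdh18 to -1.37 for Cdh13. The remaining contactins Cntn4, Cntn5 and Cntn6 had -2.59, -2.43 and -3.01.

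Many of these values rest on few windows. The 46 genes held a score at a median of 51.6% of the 6-kb grid positions in their bodies, from 9.52% in Cntn6 (6 windows) to 99.3% in Dpp6, against a median of 91.7% over all genes. In 22 of the 46 less than 50% of positions held a score, against 2.24% of all genes. Low coverage was also common in the 180 other genes of 500 kb or more, at 24.4%, with a median of 83.2% of positions. Those 22 were later (median -2.93, against -1.84 in the other 24) and their control replicates lay further apart, with a median gap of 0.36 against 0.13. Between the auxin replicates the median gaps were closer, at 0.15 against 0.094. Control replicate 1 was the later replicate in 21 of the 22, in 10 of the other 24, and in 51.1% of all genes. The widest gap was that of Cntn6, at -3.84 and -2.18 in the control profiles and -3.08 and -3.04 with auxin. Scored windows were also unevenly spread within some bodies, with 69 of the 164 windows of Cntnap2 in its last 20%. A body mean weights the better covered parts. The sources used here do not say why these positions hold no score, and the part of missing windows in these levels was not tested.

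**Figure D3:**
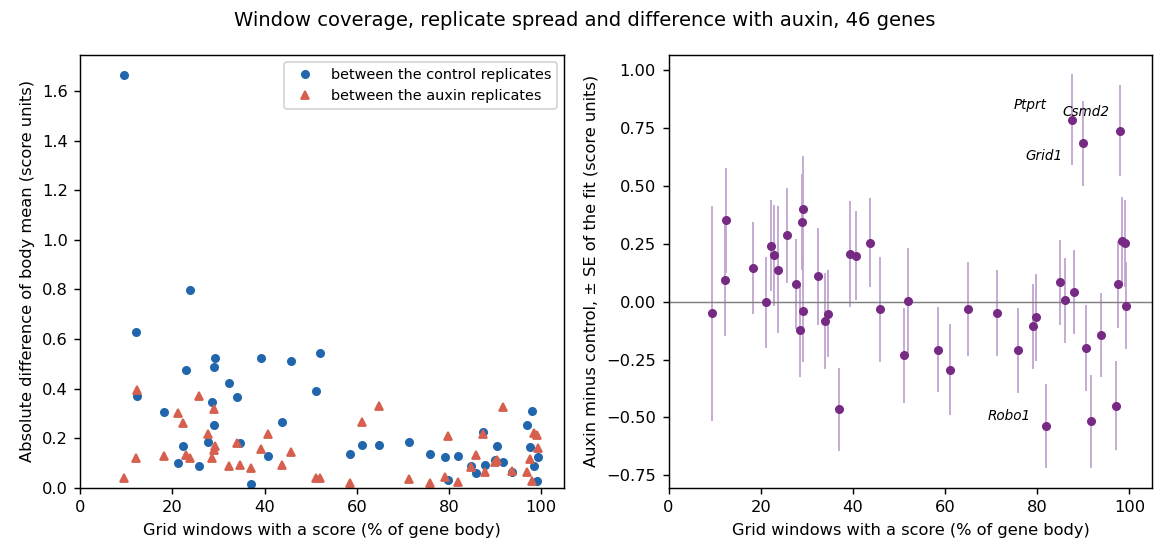
For the 46 genes, the share of 6-kb grid positions in the body that hold a score (percent) against the absolute gap between replicates (left) and against auxin minus control with its standard error from limma (right), in score units. The widest replicate gaps lie at low coverage, with 1.66 for Cntn6, and Ptprt, Csmd2 and Grid1 lie highest on the right.

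The comparison of auxin with control asks whether these genes replicate at another time in degron cells given auxin. No body mean of the 46 passed the test (limma, Benjamini-Hochberg over 12984 genes, adjusted p under 0.05), nor did any of the 12984 genes, a background of 0%, where the smallest adjusted p was 0.0755. At an unadjusted p under 0.05 there were 7 of the 46 (15.2%) and 2849 of all genes (21.9%). Of those 7 genes, Ptprt, Csmd2 and Grid1 scored higher with auxin and Robo1, Ctnnd2, Galntl6 and Ptprn2 lower. The median difference over the 46 genes was 0.0046 and the median of its size 0.17, against 0.27 over all genes and 0.17 over genes of 500 kb or more. Both auxin profiles lay above both controls in 11 of the 46 and below both in 11, against 24.1% and 29.4% of all genes. Thus the share of the 46 with groups that did not overlap, 47.8%, was below that of all genes, 53.5%.

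Ptprt on chromosome 2 (161521988 to 162661147) scored -2.55 and -2.77 in the control profiles and -1.98 and -1.77 with auxin. Both auxin profiles were higher than both controls, with a difference of 0.79 (SE 0.20, limma adjusted p = 0.0903), the largest of the 46. Csmd2 on chromosome 4 (127986505 to 128567660) scored -1.18 and -1.49 in control and -0.61 and -0.59 with auxin. The groups did not overlap and differed by 0.74 (SE 0.20, limma adjusted p = 0.102). Grid1 on chromosome 14 (34820003 to 35583387) scored -1.41 and -1.30 in control and -0.62 and -0.73 with auxin. Its auxin profiles again lay above its controls, by 0.68 (SE 0.18, limma adjusted p = 0.103). All 3 genes remained below -0.5 with auxin, and each held a score at 87.4% or more of its grid positions.

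Robo1 on chromosome 16 (72027518 to 73047491) scored -1.46 and -1.34 in control and -1.92 and -1.95 with auxin. Both auxin profiles were lower, by -0.54 on average (SE 0.18, limma adjusted p = 0.154). Ctnnd2 on chromosome 15 (30172534 to 31029344) scored -1.66 and -1.56 in control and -2.29 and -1.96 with auxin. This was a difference of -0.52 without overlap (SE 0.20, limma adjusted p = 0.192). Galntl6 on chromosome 8 (57772489 to 58912531) scored -1.54 and -1.53 in control and -1.96 and -2.04 with auxin, a difference of -0.47 (SE 0.18, limma adjusted p = 0.194). Its control replicates were the closest of all 46 genes, with a gap of 0.017, and its score covers 37.0% of grid positions. Ptprn2 followed at -0.45 (SE 0.19, limma adjusted p = 0.226).

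The calls depended on how the variance was modelled and which genes were tested. With a trended and robust variance, 3 of the 46 passed, Csmd2, Grid1 and Ptprt (limma adjusted p = 0.0150, 0.0184 and 0.0229), on a background of 10.7% of 12984 genes. Among genes with at least 10 windows, 4 passed, the same 3 genes and Robo1 (limma adjusted p = 0.0415), on a background of 14.4% of 4355 genes. In both settings the share of the 46 that passed was below the background. Leaving out each profile in turn, or adding the replicate number as a term, gave no call among the 46.

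At a finer scale, 50-kb bins of the genome were tested, and a few bins within some bodies passed. The 46 bodies hold 953 bins, of which 674 had at least 3 windows. In control cells 614 of these (91.1%) were late, against 48.4% of all 42710 bins tested, 30 were middle and 30 early. Of the 674 bins, 8 moved earlier with auxin (1.19%, against a background of 0.637%) and 3 moved later (0.445%, against 1.02%), by limma with Benjamini-Hochberg adjustment over all 42710 bins. Among all 42710 bins, 272 moved earlier and 435 later. In this fit the share of called bins in the 46 genes was above the background for earlier bins and below it for later ones. These counts are small, and the excess of earlier bins was absent with a trended and robust variance. Adjusted p of the called bins of the 46 ranged from 0.0359 to 0.0499, close to the threshold. The 8 earlier bins lay in 5 genes, Grid1, Ptprt, Csmd2, Nrxn3 and Magi1, and the 3 later bins in Robo1 and Ctnnd2. At an unadjusted p under 0.05 there were 148 of the 674 bins (22.0%) and 21.7% of all bins. When bins with fewer than 3 windows were tested too, none of these bins passed. Without control replicate 1, 1 of the 674 bins passed, and without any other profile none did. With a trended and robust variance 29 of the 674 moved earlier and 25 later. Both shares lay below the backgrounds of 5.17% and 5.66%.

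The 3 Grid1 bins lie in the late part of the gene. The first, at chr14:35300001-35350000, scored -3.23 and -3.33 in control and -1.98 and -2.18 with auxin, a difference of 1.20 (limma adjusted p = 0.0410). The adjoining bin at chr14:35350001-35400000 scored -3.01 and -3.09 in control and -1.69 and -1.84 with auxin, a difference of 1.28 (limma adjusted p = 0.0359), and a bin at chr14:35500001-35550000 differed by 1.19. In the 20% of the body at low coordinates, by contrast, Grid1 was early, with control profiles at 1.16 and 1.32 and auxin profiles at 1.44 and 1.49. The 20% at high coordinates scored -2.54 ± 0.21 in control and -1.51 ± 0.30 with auxin. The difference was 0.23 at the early end and 1.02 at the late end, and between these ends Grid1 spanned 5.64 score units in control, the widest range of bin means of the 46 genes.

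In Ptprt the 2 called bins lie toward the start of the gene, which is on the minus strand. At chr2:162400001-162450000 the control profiles scored -2.62 and -2.96 and the auxin profiles -1.74 and -1.49, a difference of 1.18 (limma adjusted p = 0.0426). At chr2:162500001-162550000 they scored -2.09 and -2.49 in control and -1.34 and -1.02 with auxin. All 23 of its tested bins were higher with auxin than in control. Csmd2 had 1 called bin, at chr4:128050001-128100000, with -1.94 and -2.17 in control and -1.01 and -1.03 with auxin, and all 11 of its bins were higher with auxin. In Csmd2 the difference was 0.83 in the 20% of the body at low coordinates and 0.29 in the 20% at high coordinates, where the control score was 0.0047.

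Nrxn3 and Magi1 each had 1 called bin, while their body means differed by 0.20 and 0.25 and did not pass the test. The Nrxn3 bin at chr12:90000001-90050000 was the latest bin of that gene, at -4.04 and -3.90 in control and -2.85 and -2.82 with auxin. The Magi1 bin at chr6:94200001-94250000, near the start of this minus-strand gene, scored 1.08 and 0.80 in control and 1.86 and 2.08 with auxin. It is the only called bin of the 46 genes that was early in control. The first 20% of Magi1 scored 1.04 ± 0.25 in control and 1.85 ± 0.05 with auxin (SD, n = 2), while the middle 60% differed by 0.12.

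The later bins lie at the start of Ctnnd2 and in the interior of Robo1. The bin at chr15:30150001-30200000, which contains the annotated start of Ctnnd2, scored -0.42 and -0.22 in control and -1.43 and -1.42 with auxin, a difference of -1.11 (limma adjusted p = 0.0426). Toward the end of Ctnnd2 the difference shrank to -0.16 over the last 20%. In Robo1 the bin at chr16:72500001-72550000 scored -0.997 and -1.07 in control and -1.93 and -2.08 with auxin, and the bin at chr16:72750001-72800000 scored -0.89 and -0.74 in control and -2.0 and -1.68 with auxin. The first 20% of Robo1 differed by -0.20, the middle 60% by -0.64 and the last 20% by -0.39.

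**Figure D4:**
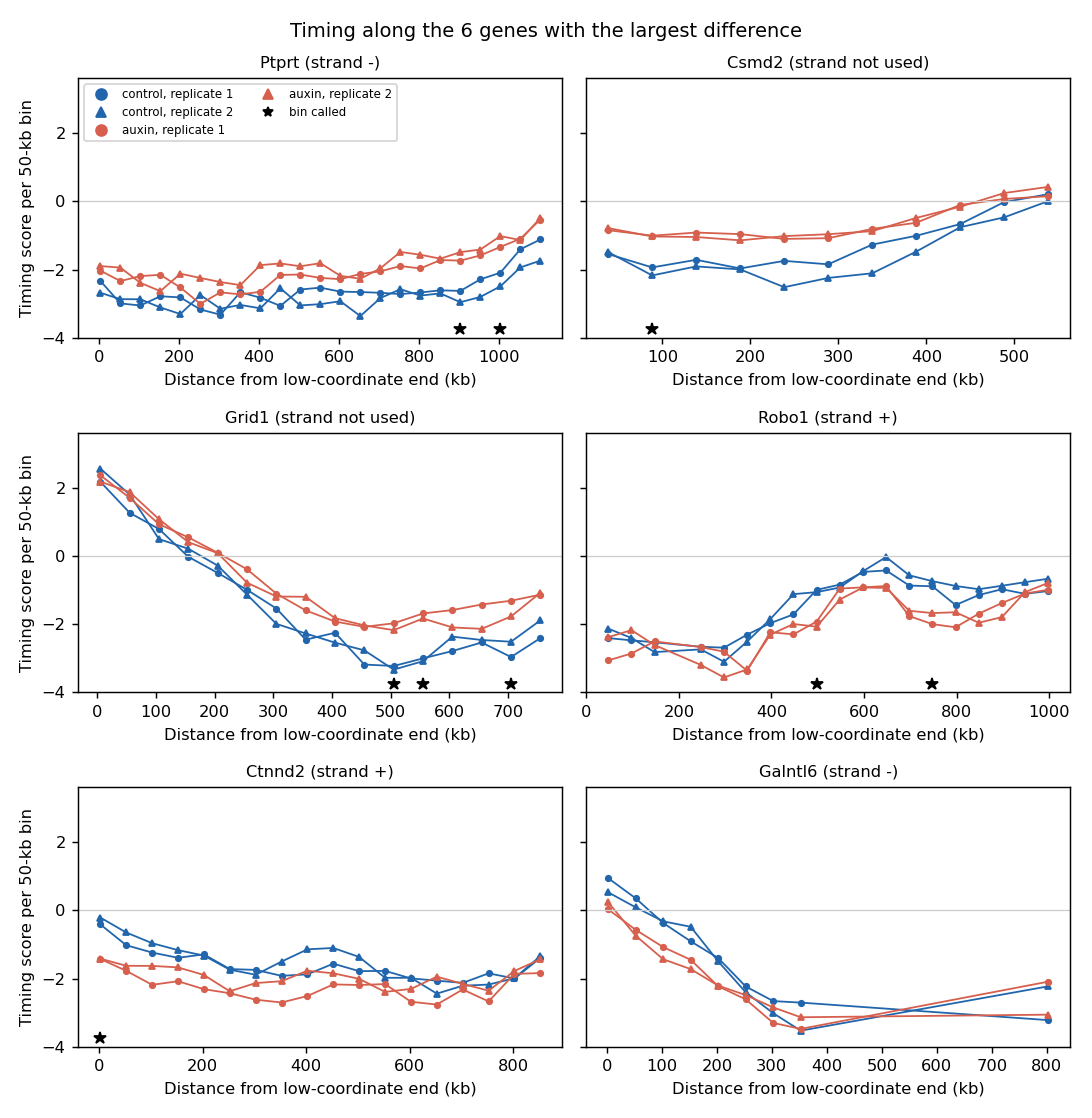
Timing score of 50-kb bins (score units) against distance from the low-coordinate end of the gene (kb) in the 6 genes with the largest body difference, with blue for control, red for auxin, circles for replicate 1 and triangles for replicate 2. Stars at the bottom mark the 9 called bins of these genes, lines join neighbouring bins with a value, and Galntl6 holds a wide stretch without one.

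Upstream sequences of 3 of these genes are shown because their called bins contain the gene start (Ctnnd2), flank an annotated start (Robo1) or lie toward it (Ptprt). The 250 bases before the start are from RefSeq on GRCm38.p6, read on the gene's strand from 5′ to 3′, with each CG in capitals.
Ctnnd2 (chr15:30172284-30172533, plus strand): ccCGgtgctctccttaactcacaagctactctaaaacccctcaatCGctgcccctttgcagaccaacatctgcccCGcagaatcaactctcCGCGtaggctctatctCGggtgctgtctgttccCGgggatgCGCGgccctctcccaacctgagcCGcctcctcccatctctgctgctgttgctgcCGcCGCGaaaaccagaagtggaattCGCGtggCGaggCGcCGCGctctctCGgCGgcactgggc
Ptprt (chr2:162661148-162661397, minus strand): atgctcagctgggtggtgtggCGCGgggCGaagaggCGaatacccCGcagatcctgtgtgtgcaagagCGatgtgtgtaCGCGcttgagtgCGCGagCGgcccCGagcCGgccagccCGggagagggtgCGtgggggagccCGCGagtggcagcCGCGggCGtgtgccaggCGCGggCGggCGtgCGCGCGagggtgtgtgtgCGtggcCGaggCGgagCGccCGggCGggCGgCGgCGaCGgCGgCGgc
Robo1 (chr16:72662899-72663148, plus strand): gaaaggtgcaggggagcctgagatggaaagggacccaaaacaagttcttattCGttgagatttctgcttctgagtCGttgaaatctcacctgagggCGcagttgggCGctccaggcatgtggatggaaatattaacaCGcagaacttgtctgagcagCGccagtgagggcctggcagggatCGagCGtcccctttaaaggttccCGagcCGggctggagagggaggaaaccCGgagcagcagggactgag

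CG, which reads the same on both strands, is the base pair step at which mammalian DNA is methylated, and stretches dense in CG are called CpG islands. These windows hold 21 CGs in Ctnnd2, 39 in Ptprt and 11 in Robo1. A promoter entry matched 37 of the 46 genes. Entries were not matched for Csmd1, Csmd2, Csmd3, Cntnap5a, Dcc, Ptprd, Nrg1, Grid1 and Cdh13. All 37 windows hold at least 1 CG, as do 97.1% of 10294 promoters of the same length, and the median count is 9 over the 37 genes, 13 over all genes, 15 over early genes and 7 over late genes. At least 15 CGs stand in 10 of the 37 (27.0%), in 46.6% of all genes and in 30.4% of late genes. The entry is an internal start, over 10 kb inside the annotated gene, in 13 of the 37 genes, among them Robo1 (635631 bases inside, between its called bins), Cntn4, Ntm, Nrxn3, Tenm2 and Magi1. The median was 6 over these 13 and 12 over the 24 whose entry lies within 10 kb of the gene's edge, against 14 over 9790 such promoters of all genes and 8 over those of late genes. Ptprt holds the most of the 37, and Rbfox1, at 2, the fewest of the 24.

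In 33 of the 46 genes every 50-kb bin that could be tested was late in control. These 33 genes hold 681 bins, of which 435 were tested, and in some the body was hardly sampled, with 2 of 15 bins in Pcdh9 and 1 of 2 in Cntn6. At least 1 early bin was found in 9 genes, of which 7 (Grid1, Cntnap2, Tenm2, Magi2, Galntl6, Dpp6 and Cdh13) also held late bins, while Magi1 and Tenm4 held none. In 6 genes the bins spanned more than 3 score units, namely Grid1, Cntnap2, Tenm2, Magi2, Galntl6 and Tenm3, the last of which held no early bin. In Cntnap2 the last 20% scored -0.57 ± 0.07 and the middle 60% -3.07 ± 0.26 in control (SD, n = 2). Galntl6 was likewise late over its first 20%, at -2.76 ± 0.59 in control, but only 6 windows lie there. Its last 20%, with 37 windows, was earlier, at -0.34 ± 0.04 in control and -1.17 ± 0.08 with auxin.

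The gradient, the slope of window scores along the gene, was tested in 44 of the 46, since Cntn6 and Cntnap5b held fewer than 17 windows. It was shallow in most, with a median size in control of 0.083 score units per 100 kb against 0.366 over 2221 genes of 100 kb or more and 0.140 over genes of 500 kb or more. It reached 0.1 in 18 of 44 (40.9%), against 84.0% of all genes tested and 59.8% of those of 500 kb or more. The steepest was Grid1, with slopes of -0.67 and -0.66 in control and -0.49 and -0.54 with auxin, given along the chromosome because its strand was not used. Tenm2 rose from its start by 0.42 and 0.41 per 100 kb in control and by 0.33 and 0.43 with auxin. The groups did not overlap in Grid1 and overlapped in Tenm2.

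Fgf12 ran the other way, later toward its end, with slopes of -0.42 and -0.34 in control and -0.55 and -0.45 with auxin. Csmd2 had 0.38 and 0.34 in control and 0.23 and 0.27 with auxin, along the chromosome. In both genes the groups did not overlap, with Fgf12 steeper and Csmd2 flatter with auxin. Galntl6 rose by 0.39 and 0.29 in control and by 0.22 and 0.23 with auxin. Negr1 rose by 0.27 and 0.29 in control and by 0.19 and 0.25 with auxin. In both genes the auxin slopes lay below the control slopes.

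With auxin no gradient of these genes changed past the test. None of the 44 gradients passed (limma, Benjamini-Hochberg over 2221 genes), on a background of 0%, and at an unadjusted p under 0.05 there were 0 of 44 and 10.7% of all 2221 genes. The largest difference was that of Grid1, 0.15 per 100 kb toward a flatter slope (SE 0.083, limma adjusted p = 0.581). Galntl6 and Fgf12 followed with -0.12 each (limma adjusted p = 0.677 and 0.694) and Csmd2 with -0.11 (limma adjusted p = 0.677). None of these 4 differences was as large as 2 standard errors.

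Among 35 genes with a known strand, 25 (71.4%) were earlier toward their end than toward their start in control, against 47.0% of all oriented genes and 58.1% of those of 500 kb or more. With auxin the count was 21 of 35 (60.0%), against 45.6% of all and 55.2% of those of 500 kb or more. The sign was positive in all 4 profiles for 16 of the 35 and negative in all 4 for 7. These are descriptions of the list, with slopes near 0 in many genes, and no test was made.

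**Figure D5:**
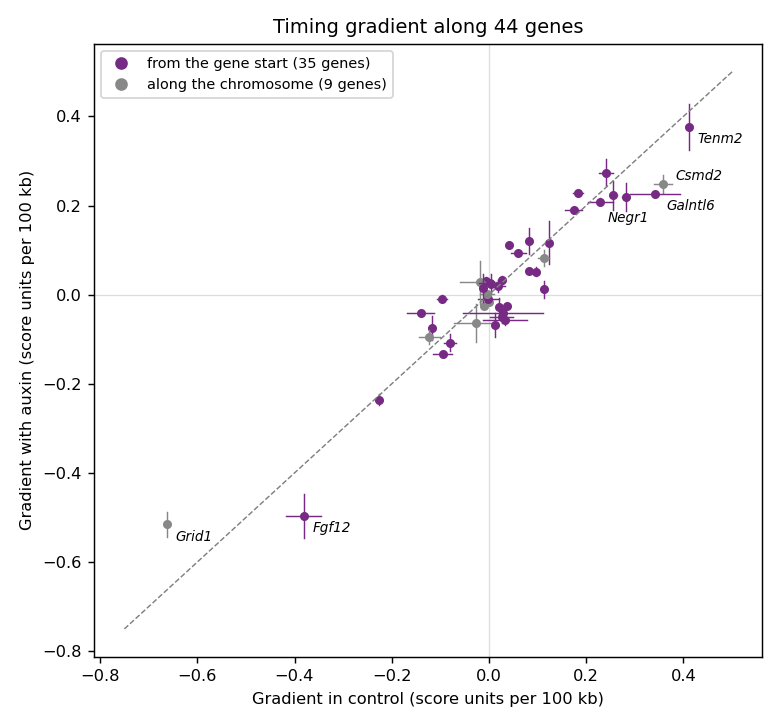
Mean timing gradient in control (horizontal) against that with auxin (vertical), in score units per 100 kb, for 44 genes, with bars joining the 2 replicates. Purple genes are read from the gene start, grey genes along the chromosome, and points on the dashed line have equal gradients. Grid1 is steepest at -0.66 in control and -0.52 with auxin.

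The bodies were mostly later than what surrounds them. In 31 genes with enough windows in the 250 kb on each side, the body was later than the flanks in 27 (87.1%), against 59.5% of 2168 genes of 100 kb or more. The median of body minus flanks was -0.54 against -0.13, and 12 of the 31 were later than their flanks by at least 1. Ptprt lay furthest below its flanks, by -2.25 in control and -1.91 with auxin, followed by Magi2 at -1.83 and Grid1 at -1.60. Ntm lay furthest above, at 0.39, but Opcml lies 69.3 kb away, so the flanks of each include part of the other's body. These values were not computed for genes of 500 kb or more as a set. With auxin the body was later in 30 of 31, with a median of -0.49.

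Shorter relatives and partners of these genes covered the whole timing range. Of 98 paralogs, ligands and partners listed by family, 82 had at least 3 windows, and 41 of these (50.0%) were late and 37 early in control, with a median of -0.62. In the contactin-associated family, Cntnap1, which spans 16.1 kb, had a control mean of 3.68, while Cntnap4, at 313 kb, had -2.77. The neurexin gene Nrxn2, at 114 kb, had 3.25 beside -3.29 for Nrxn3. Ctnnd1, at 71.9 kb, had 2.97 beside -1.61 for Ctnnd2.

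None of the 82 body means passed the test, on the background of 0%, and 9 (11.0%) had an unadjusted p under 0.05 (limma), against 21.9% of all genes. The largest difference was that of Cntnap3, at -1.36 and -1.89 in control and -0.33 and -0.98 with auxin, a difference of 0.97 (limma adjusted p = 0.120). The roundabout receptor Robo3 scored 2.47 and 2.43 in control and 1.54 and 1.50 with auxin, a difference of -0.93 (limma adjusted p = 0.0769). Robo4, which lies beside it on chromosome 9 and so marks the same locus, with 3 windows in each gene, scored 2.47 and 2.51 in control and 1.70 and 1.61 with auxin, a difference of -0.84 (limma adjusted p = 0.0797). In all 3 the groups did not overlap. With a trended and robust variance 5 of the 82 passed, Robo3, Robo4 and Cntnap3 together with the netrin receptor Neo1 and the phosphatase Ptprm, on the background of 10.7%. Among genes with at least 10 windows, an alternative chosen for this list after seeing the data, 3 of 59 passed, Neo1, Ptprm and Cntnap3, on the background of 14.4%.

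The authors deposited lists of 63 regions that moved from early to late and 22 from late to early with auxin. None of the 46 genes overlapped either list. The share of all genes that overlap these regions was not counted, so this result has no background. By body mean, 44 of the 46 were already late in control. The nearest was Lsamp, 94.3 kb from an early-to-late region, and Lsamp itself differed by -0.12 with overlapping profiles.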

How the data were processed

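Repli-seq libraries of early and late S-phase cells were made for 2 replicates with auxin and 2 without. The authors deposited timing scores per 6-kb grid window, already quantile normalized, with 1 profile per replicate. Bowtie2, SAMtools and bedtools with mm10 are named per the submitters' processing notes; the score's formula, log base, smoothing and filters are not stated in the sources used here. That higher is earlier follows from the deposited early-to-late list. Its q-values were not used.

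Gene bodies came from RefSeq on GRCm38.p6, whose coordinates are those of mm10. Windows overlapping a body were averaged (at least 3), fitted by a least-squares slope (genes of at least 100 kb with at least 17 windows), and averaged in 50-kb bins (at least 3 windows). Strand was known for 37 genes; the other 9 have slopes along the chromosome, which leaves their p unchanged. Neighbouring windows are not independent: the gap between control replicates had a correlation of 0.93 between adjacent windows.

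Groups were compared with limma 3.58.1 in R 4.3.3 (lmFit and eBayes, treatment only, 2 residual degrees of freedom), with Benjamini-Hochberg adjustment over all features and a threshold of 0.05. The scripts were tested on simulated data. Means, counts and figures were made in Python 3.11.15 with pandas 2.3.3 and NumPy 2.4.6. Alternatives were other window and length minimums, trended and robust variance, medians of windows, other slope measures, 100-kb bins, a replicate block and leaving out each profile. The rule for the 46 genes uses no measured value, but they and the other lists were chosen with earlier results of these data known. Values in all 4 profiles are given for the 3 earliest and latest genes, the 6 largest body differences, the 6 steepest slopes, the 4 largest slope differences, and genes with 2 or more called bins.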

Additional observations from a re-analysis of the deposited data

How the results depend on the processing

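The count of the 46 genes whose body mean passed the test rose from 0 to 4 with at least 10 windows per gene and to 3 with trended and robust variance, and the count over all genes from 0 to 626 and 1391. It stayed at 0 for the 46 with genes of 1 window or more, medians of windows, the replicate block and each profile left out. The 11 called bins of the 46 genes (8 earlier, 3 later) became 0 when all bins were tested (0 earlier, 0 later). They became 54 with trended and robust variance (29 and 25, on backgrounds of 5.17% and 5.66% of all bins). With the replicate block 42 were called (25 and 17), and with 100-kb bins 11 (8 and 3), each a wider bin. No share over all bins is given for the replicate block or the 100-kb bins, so those counts have no background. Leaving out each profile in turn gave 0 to 1 called bins, with 0 to 1 earlier and 0 to 0 later. The called paralogs and partners rose from 0 to 5 with trended and robust variance and to 3 with at least 10 windows per gene, and stayed at 0 with the replicate block. Gradient calls among the 46 stayed at 0 in every setting run, and the median level was -2.65 with medians of windows. Replicate numbers did not pair the profiles: deviations of same-numbered profiles correlated by 0.041 for bodies, -0.0019 for gradients and 0.038 for bins. Depth is unknown. Among the 46, genes with a score at under 50% of grid positions had a median gap of 0.36 between control replicates, against 0.13 in the others. Between auxin replicates it was 0.15 against 0.094.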
